A study of Mus musculus with 30 samples.

Results

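MicroRNA (miRNA) levels were compared between hearts taken 3 days and 1 day after mice received carbon black particles into the airways. The hearts were chosen by their source label, as high-dose Printex 90 on day 3 (5 hearts) and on day 1 (6 hearts), which made 11 of the 30 samples. All mice were female C57BL/6, acquired at 5 to 6 weeks of age, and their age at instillation is not given in the sources used here. The exposed mice received 162 µg Printex 90, a commercial carbon black of nanosized particles, in 1 intratracheal instillation of 40 µl. Vehicle mice, used here only beside the exposed ones, received the same fluid with 0 µg, and 6 were taken on day 3 and 4 on day 1. The particles and the vehicle were both given in 0.9% NaCl with 10% acellular lavage fluid from the lungs of other C57BL/6 mice, and each instillation was followed by 150 µl of air. The tissue was a randomly placed section holding both ventricles, so the cell types within a section were not controlled, and a section cannot tell fewer cells of a type from less RNA per cell. Every heart had its own identifier in the labels and its own array, and p-values below measure the spread between those hearts.

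A miRNA is a short RNA that guides an Argonaute protein to messenger RNAs, mostly by pairing of its bases 2 to 8, the seed, and lowers their translation or stability. Heart muscle carries a small set of very abundant miRNAs, led by miR-1a and miR-133a, and miR-208a, miR-208b and miR-499 lie within myosin heavy chain genes. Endothelium, smooth muscle, blood and inflammatory cells in the same tissue carry sets of their own, and several of them, such as miR-146a and miR-155, are induced by inflammatory signalling. A star marks the strand of a precursor that was named as the less abundant one.

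The mature sequences below belong to the 16 miRNAs with the smallest p between day 3 and day 1, 8 in each direction, and to miR-10b and miR-451, which later paragraphs turn on. They are shown so that the seeds of the miRNAs leading the comparison can be read beside their values. They were matched by name to RefSeq on GRCm38.p6, which gave 16 of the 18, written 5′ to 3′ with the seed in capitals. No entry was matched for miR-150 and miR-5105. The first 7 had higher values on day 3.
miR-374c: aUAAUACAaccugcuaagug
miR-148b: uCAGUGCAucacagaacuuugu
miR-335-5p: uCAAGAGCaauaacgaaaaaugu
miR-125a-5p: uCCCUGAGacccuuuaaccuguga
miR-204: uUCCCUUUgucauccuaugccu
miR-340-5p: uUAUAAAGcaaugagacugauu
miR-139-5p: uCUACAGUgcacgugucuccag
The next 7 had lower values on day 3.
miR-3473b: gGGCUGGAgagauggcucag
miR-3069-3p: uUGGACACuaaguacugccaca
miR-193: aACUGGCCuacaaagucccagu
miR-211*: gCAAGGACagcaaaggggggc
miR-5126: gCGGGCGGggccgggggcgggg
let-7f-1*: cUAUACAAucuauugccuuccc
miR-7a: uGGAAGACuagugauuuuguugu
The last pair are miR-10b and miR-451.
miR-10b: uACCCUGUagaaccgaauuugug
miR-451: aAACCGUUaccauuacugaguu
The 16 printed sequences had 16 distinct seeds. On the same build miR-335-5p lies at chr6:30741314-30741336 (plus strand) within the imprinted gene Mest, miR-204 at chr19:22750610-22750631 (plus strand) within Trpm3 and miR-139-5p at chr7:101475382-101475403 (plus strand) within Pde2a. miR-211* lies at chr7:64205868-64205888 (plus strand) within Trpm1 and miR-374c at chrX:103573086-103573105 (plus strand).

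Signals were available for 4 of the 5 day 3 hearts (replicates 1, 2, 4 and 5) and for all 6 day 1 hearts. Day 3 replicate 3 has values only in the series value table and is described near the end. The arrays probed 1079 mouse miRNAs, and 229 of them were detected in all 4 day 3 and all 6 day 1 hearts. A further 7 were detected on day 3 arrays only, each on 1 array, and 31 on day 1 arrays only, on at most 3 arrays. Day 1 had 6 arrays with 238 to 339 detected miRNAs each, and day 3 had 4 arrays with 274 to 311. The counts of 31 and 7 are therefore not on an equal footing. Spots well above background made up 24.2% ± 1.45 (SD, n = 4) on day 3 and 23.6% ± 3.35 (n = 6) on day 1 (means, exact two-sided permutation test, p = 0.781), and its difference ran from −0.33 to 1.31 percentage points when each array was left out in turn. The lowest shares were in day 1 replicates 5 and 6, at 19.2% and 20.7%, both on slide 2. The 10 arrays shared 4 slides, each scanned once. Slides 1, 2 and 3 held hearts of both days, and slide 4 held day 1 replicate 2 and no day 3 heart.

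Some hearts stood apart from the rest, and they are named here because several of the differences below rest on 1 heart. Day 1 replicate 5 was over 1 log2 unit above the other 9 hearts for miR-143, miR-145, miR-140, miR-140* and miR-193. It had the lowest value of the 10 for 53 miRNAs and the highest for 46. Day 1 replicate 4 had the lowest value of the 10 for 128 of 306 tested miRNAs and the lowest median correlation with the other 9 hearts, 0.965, against 0.973 to 0.985 for the others. Day 1 replicate 3 was over 1 log2 unit above the others for miR-376c, miR-302c, miR-3063 and miR-30b*. Day 1 replicate 2, alone on slide 4, had the highest value of the 10 for 70 miRNAs, but for 0 by over 1 log2 unit. Among the day 3 hearts, replicate 2 had the lowest value of the 10 for 44 miRNAs and stood out for red cell miR-451. These miRNAs, other than those in the sequence list, miR-145, miR-143, miR-376c and miR-451, were picked after their values were seen.

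The comparison of the exposed hearts asked which miRNA levels differed between the third and the first day after the particles. None of 306 tested miRNAs (0%) passed an adjusted p of 0.05, and 0 (0%) had an unadjusted p below 0.05. The adjusted p by limma was 0.998 for every miRNA, and the smallest unadjusted p was 0.0820, for miR-3473b. The differences (day 3 minus day 1, log2 signal) had a median of 0.00, and their 5th and 95th percentiles were −0.23 and 0.18. Values were higher on day 3 for 161 miRNAs (52.6%) and lower for 145 (47.4%), and for 0 of 306 (0%) did the 4 day 3 hearts and the 6 day 1 hearts separate without overlap.

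The intervals of these differences set how large a change could have gone unseen. The 95% interval lay within a 2-fold change either way for 292 of 306 miRNAs and within a 1.5-fold change for 185. Differences over 1.2-fold were found for 18 miRNAs (5.88%), over 1.5-fold for 4 (1.31%) and over 2-fold for 0. The 4 were liver miR-122, and miR-302c, miR-3063 and miR-376c, whose hearts of 1 day differed among themselves by several log2 units. The median SD among hearts was 0.22 on day 3 (n = 4) and 0.31 on day 1 (n = 6), and the SD was larger on day 1 for 233 of 306 miRNAs.

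**Figure D1:**
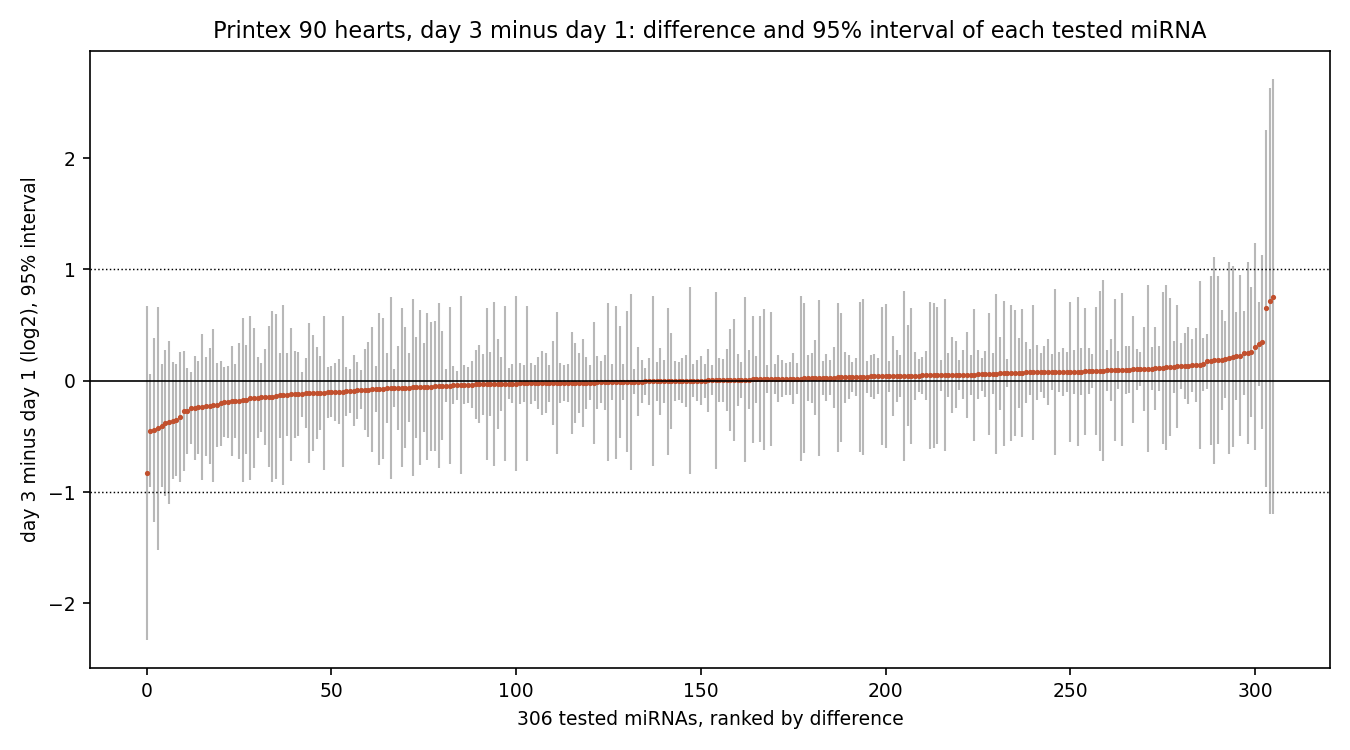
Log2 difference (day 3 minus day 1, Printex 90 hearts) of each of 306 tested miRNAs, ranked from lowest to highest, with its 95% interval from limma as a grey line and dotted lines at a 2-fold change either way. The points lie between −0.83 and 0.76, and every interval crosses 0.

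Among the 8 miRNAs with the smallest p in the upward direction, miR-150, which is abundant in mature lymphocytes and lowers Myb, came first. It had log2 signals of 6.47, 6.39, 6.61 and 6.20 in the day 3 hearts, against a range of 5.52 to 6.34 with a median of 6.27 in the day 1 hearts. The low end on day 1 came from replicates 5 and 6, at 5.52 and 5.80, while the other 4 were between 6.26 and 6.34 and overlapped the day 3 hearts. Its difference was 0.33 ± 0.18 (SE; 95% interval −0.05 to 0.70), and it was 0.21 without day 1 replicate 5 and 0.11 without replicates 5 and 6, a setting chosen after seeing the data. Within slides 1, 2 and 3 the difference was 0.31, 0.55 and 0.09. Day 1 replicates 5 and 6 and the lowest day 3 heart, replicate 5 at 6.20, all lie on slide 2. The vehicle hearts of that slide were also low for miR-150, at 5.92 and 5.97 on day 3 and 5.89 on day 1. The other vehicle hearts of these days had 6.25 to 6.69. An effect of the slide on miR-150 was not tested apart.

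miR-374c, an X-linked miRNA, had 5.86, 5.84, 5.81 and 5.64 on day 3, against 5.11 to 5.77 (median 5.70) on day 1. Day 1 replicate 5 gave the low end, apart from the other 5 day 1 hearts at 5.67 to 5.77, and the difference of 0.18 ± 0.12 came to 0.08 without it. miR-148b had 6.84, 6.89, 6.93 and 7.02 on day 3, against 6.74 to 6.90 (median 6.81) on day 1, a difference of 0.11 ± 0.07. The day 3 hearts were all above the day 1 mean, and the differences within slides 1, 2 and 3 were 0.16, 0.17 and 0.03. miR-335-5p had 7.21, 6.53, 6.73 and 6.88 on day 3, against 6.12 to 6.96 (median 6.69) on day 1, a difference of 0.25 ± 0.18 with overlapping groups.

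miR-204, which is carried by Trpm3, had 6.95, 6.81, 6.91 and 6.72 on day 3, against 6.23 to 6.96 (median 6.76) on day 1. The lowest day 1 value was that of replicate 4, and the difference of 0.15 ± 0.12 came to 0.05 without it. The remaining members of this group were miR-125a-5p, a relative of the developmental miRNA lin-4 of worms, at 0.13 ± 0.10, miR-340-5p at 0.14 ± 0.12 and miR-139-5p at 0.09 ± 0.07. For miR-125a-5p the high day 3 value of 7.73 in replicate 1 carried the difference, which was 0.03 without it.

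Among the 8 with the smallest p in the downward direction, miR-3473b had 6.50, 5.94, 5.69 and 6.39 on day 3, against 6.22 to 7.17 (median 6.47) on day 1. The 2 highest hearts were day 1 replicates 5 and 6, at 7.17 and 6.92. Its difference of −0.45 ± 0.25 (95% interval −0.96 to 0.06) was −0.22 without those hearts, and within slides 1, 2 and 3 it was −0.68, −0.65 and 0.00.

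miR-5105, miR-211* and miR-5126 had like patterns over the hearts. miR-5126 had 8.62, 8.41, 8.66 and 8.99 on day 3, against 8.50 to 9.48 (median 9.12) on day 1, a difference of −0.36 ± 0.25. miR-5105 differed by −0.40 ± 0.27 and miR-211*, the star strand of the Trpm1 miRNA, by −0.35 ± 0.24. In all 3 the day 1 replicates 3 and 4 lay among the day 3 hearts. The differences within slide 1 were 0.05 for miR-5126, 0.12 for miR-5105 and 0.04 for miR-211*, and those within slide 3 were −0.72, −0.82 and −0.57 in the same order. The same 3 miRNAs turned positive once day 3 replicate 3 entered through the value table.

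miR-193 had 6.00, 5.67, 5.91 and 6.18 on day 3, against 5.77 to 7.29 (median 6.04) on day 1. The top value belonged to day 1 replicate 5, without which the difference of −0.27 ± 0.19 was −0.06. miR-3069-3p had 5.23, 4.52, 5.28 and 5.27 on day 3, against 4.85 to 5.56 (median 5.35) on day 1, and its difference of −0.24 ± 0.16 was −0.06 without day 3 replicate 2. let-7f-1*, a star strand of the let-7 family, differed by −0.19 ± 0.15, and miR-7a, known from neurons and the endocrine pancreas, by −0.12 ± 0.10. The day 3 values of miR-7a lay inside the range of the day 1 hearts. let-7f-1* had 5.01, 4.60, 4.91 and 5.09 on day 3, against 4.30 in day 1 replicate 4 and 5.15 to 5.37 in the other 5 day 1 hearts. Its day 3 hearts were thus below all day 1 hearts but that one, and the difference was −0.35 without replicate 4 and −0.09 without day 3 replicate 2. Within slides 1, 2 and 3 it was 0.19, −0.27 and −0.37.

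**Figure D2:**
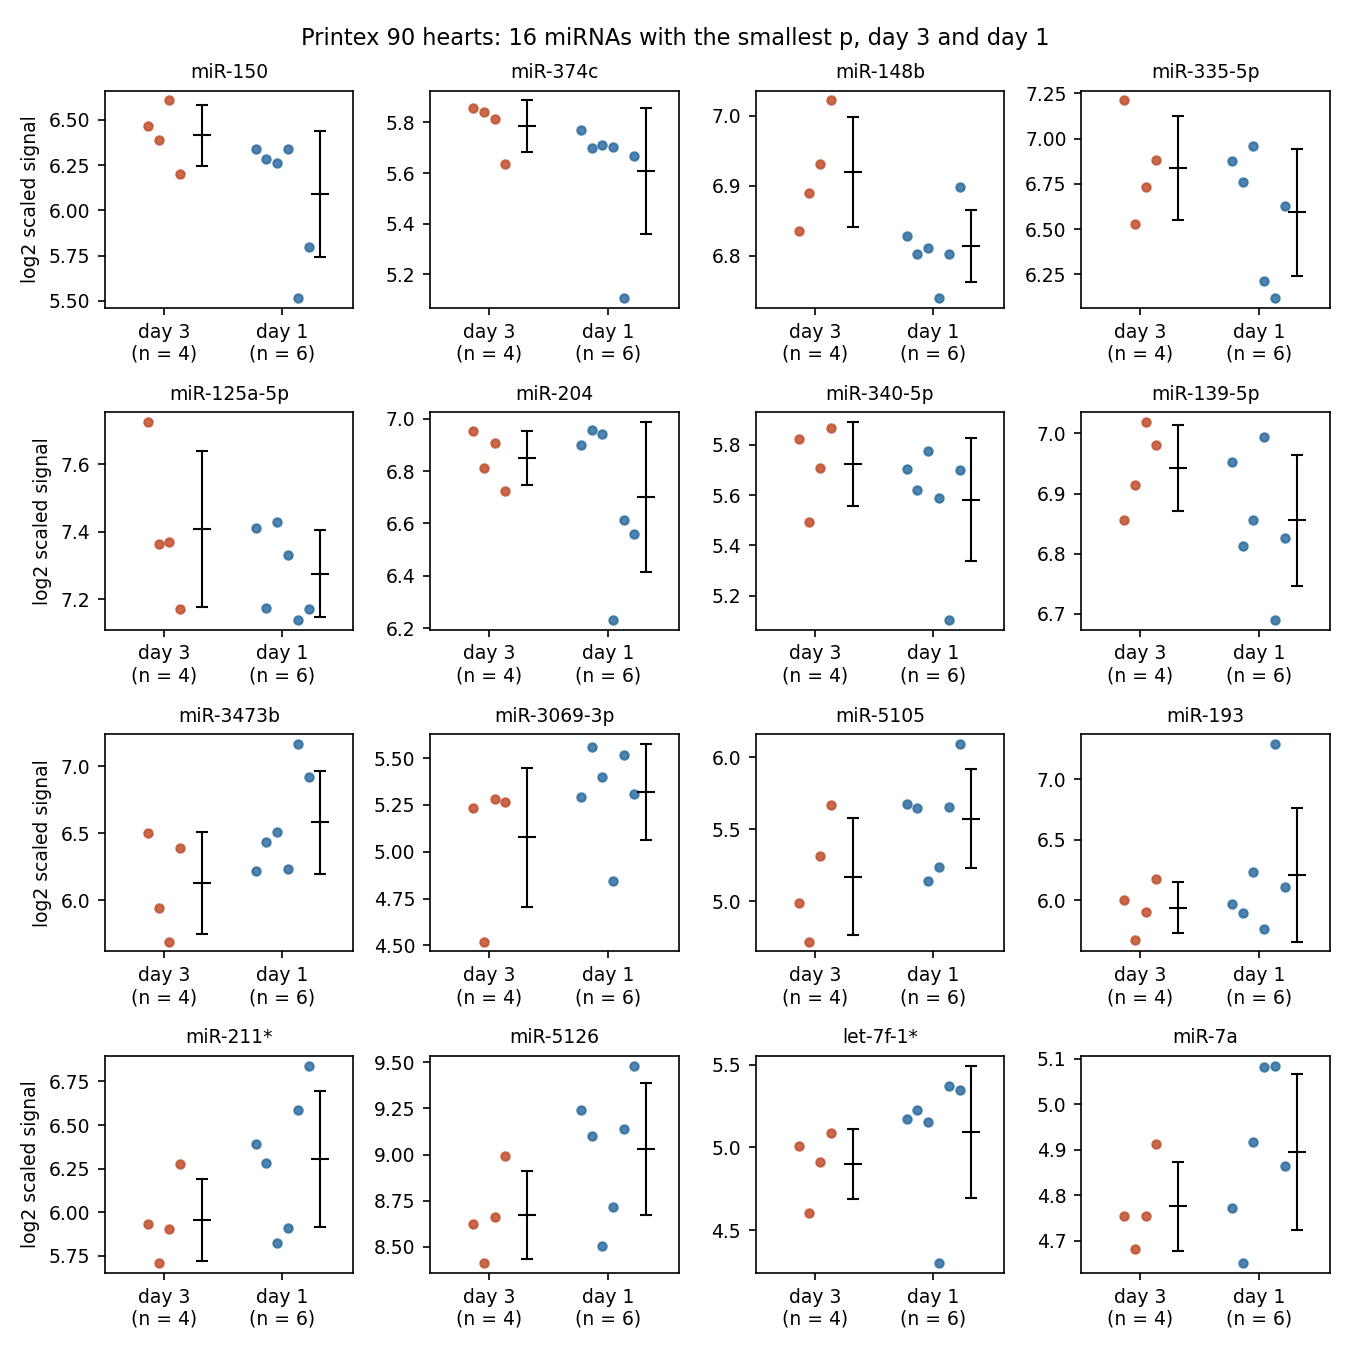
Log2 scaled signal per heart of the 16 miRNAs with the smallest p, each panel with the day 3 hearts (n = 4) left and the day 1 hearts (n = 6) right, and the mean ± SD as a bar. In every panel the day 3 and day 1 points overlap, and in the panels of miR-374c, miR-340-5p and miR-193 the wide day 1 bar comes from 1 heart.

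Muscle miRNAs were at like levels on both days. miR-1a, the most abundant miRNA of heart muscle, averaged 16.03 ± 0.11 on day 3 (SD, n = 4) and 16.03 ± 0.08 on day 1 (n = 6), a difference of 0.00 ± 0.07 (SE; 95% interval −0.15 to 0.15). miR-133a, of the same transcripts as miR-1, differed by 0.08 ± 0.10 and miR-208a-3p, carried by the myosin gene Myh6, by 0.03 ± 0.11. miR-499, within Myh7b, had 10.91, 11.18, 11.32 and 11.46 on day 3, against 10.63 to 11.41 on day 1, and differed by 0.13 ± 0.15. miR-208b, within Myh7, the myosin gene that returns in the stressed rodent heart, differed by −0.19 ± 0.16, and it was 5.52, 4.73, 5.03 and 5.53 on day 3 against 5.12 to 5.63 on day 1. Of 10 tested muscle miRNAs 7 had higher values on day 3 and 0 passed, with a median of 0.03, against a median of 0.00 over all tested miRNAs. That median was −0.06 in the value table of 29 arrays.

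Of 9 miRNAs of cardiac stress and metabolism, 7 had higher values, 0 passed and the median was 0.02 (−0.02 with normexp background correction). miR-195, which causes cardiac hypertrophy when overexpressed in mice, differed by 0.10 ± 0.11 and miR-22*, the star strand of the muscle miRNA miR-22, by 0.08 ± 0.08. Fibroblast and matrix miRNAs had a median of 0.01, with 6 of 10 higher and 0 passing, and the value table turned that median to −0.01. The collagen-targeting miR-29c differed by 0.10 ± 0.10 and miR-29a by 0.08 ± 0.11. miR-21, which is raised in injured heart tissue, averaged 10.61 ± 0.09 on day 3 and 10.61 ± 0.32 on day 1, a difference of 0.01 ± 0.11. Without day 1 replicate 5, its highest day 1 heart, the difference was 0.13, and within slides 1, 2 and 3 it was 0.06, −0.31 and 0.13.

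Inflammation-induced miRNAs had higher values on day 3 in 5 of 5 tested members, of which 0 passed, with a median of 0.14 over the list. miR-146a, which lowers signalling through Traf6 and Irak1, had 6.90, 6.50, 6.59 and 6.90 on day 3, against 6.14 to 6.77 (median 6.54) on day 1. Day 3 replicates 1 and 5 were above all day 1 hearts and the other day 3 hearts were among them, and the difference was 0.19 ± 0.17 (95% interval −0.15 to 0.54). miR-155, of activated leukocytes, differed by 0.08 ± 0.09, with 5.98, 5.87, 6.15 and 6.08 on day 3, against 5.60 to 6.12 (median 5.97) on day 1.

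The size of that list's median moved with 1 heart. Without day 1 replicate 5 it was 0.01, and within slides 1, 2 and 3 it was 0.06, 0.29 and 0.02. The CREB-driven pair miR-132 and miR-212-3p, at 0.14 and 0.18 with all hearts, came to −0.01 and −0.03 without that heart, while miR-21 came to 0.13. For miR-212-3p all hearts of these days on slide 2, exposed and vehicle, were low, at 5.30 to 5.92, against 6.49 to 7.13 on the other slides. miR-146b and miR-135b, which belong to the same list, were detected on 0 arrays.

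Among leukocyte miRNAs 4 of 5 had higher values on day 3, 0 passed and the median was 0.11. That median was 0.04 with normexp, and within slides 1, 2 and 3 it was 0.02, 0.01 and 0.13. miR-223, of neutrophils and other myeloid cells, had 8.44, 8.36, 8.18 and 8.25 on day 3, against 8.04 to 8.29 (median 8.24) on day 1. Day 3 replicates 1 and 2 lay above all day 1 hearts, and the difference was 0.11 ± 0.10, with 0.02, 0.01 and 0.13 within the slides. miR-142-3p, made in all blood cell lineages, was the member below 0, at −0.07, and lymphocyte miR-150, described above, was the highest.

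Endothelial miRNAs had a median of −0.02, which was 0.03 with scaling over all probes, and 6 of 10 were lower, with 0 passing. miR-126-3p, carried by the endothelial gene Egfl7, averaged 13.48 ± 0.14 on day 3 and 13.50 ± 0.15 on day 1, a difference of −0.02 ± 0.08. Its partner strand miR-126-5p was the highest member at 0.31 ± 0.45, with 8.73, 8.68, 8.25 and 7.36 on day 3, against 6.78 to 8.73 (median 8.24) on day 1. The low values were those of day 3 replicate 5 and day 1 replicates 5 and 6, which are the 3 hearts on slide 2. Within slides 1, 2 and 3 it differed by 0.02, 0.42 and −0.03, and without day 1 replicate 5 by 0.07. miR-24-1* and miR-27a were the lowest members, at −0.09 ± 0.10 and −0.08 ± 0.09.

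Smooth muscle miRNAs rested on a single heart. miR-143, which with miR-145 keeps smooth muscle in its contractile state, had 10.12, 9.91, 9.89 and 9.92 on day 3. On day 1 it was 11.65 in replicate 5 and between 9.81 and 9.99 in the other 5 hearts. Its difference was −0.24 ± 0.23 with all hearts and 0.05 without that heart, and within slides 1, 2 and 3 it was −0.01, −0.84 and 0.02. miR-145 likewise was 7.83 in that heart and 6.39 to 6.70 in the other day 1 hearts, and its difference of −0.12 ± 0.19 was 0.10 without it.

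The same heart was high for miRNAs of other lists and low for some more. miR-140, known from cartilage, was 10.11 there, against 7.06 to 7.46 in the other 9 hearts, and its difference of −0.45 ± 0.40 was 0.03 without it. miR-21 was 11.24 there, against 10.38 to 10.56 in the other day 1 hearts, and the lowest day 1 values of miR-22*, miR-128, miR-181c, miR-374c and miR-340-5p were its own. A vehicle heart on the same slide 2, day 3 replicate 5, was also high for some of these. It had miR-140 at 8.92, against 7.18 to 7.45 in the other vehicle hearts of these days. Its miR-140* was 8.67 (others 7.03 to 7.25), miR-143 10.56 (others 9.85 to 10.13) and miR-145 7.19 (others 6.45 to 6.71). For miR-193 it was 6.37 (others 5.89 to 6.35). The cause was not tested.

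Red cell miRNAs were lower on day 3 in 4 of 4, with 0 passing and a median of −0.18. That median was −0.08 without day 1 replicate 5, 0.01 without day 1 replicates 5 and 6, and −0.45 without day 3 replicate 2. miR-451, which is made in red cell precursors, had 13.71, 14.83, 13.78 and 13.76 on day 3, against 13.64 to 14.67 (median 14.22) on day 1. Day 3 replicate 2 exceeded all other hearts and the other day 3 hearts lay near the bottom of the day 1 range. The difference of −0.18 ± 0.24 was −0.45 without that heart and −0.09 without day 1 replicate 5, and within slides 1, 2 and 3 it was −0.20, −0.91 and 0.45. miR-144*, from the same precursor cluster, differed by −0.27 ± 0.26, by −0.56 without day 3 replicate 2 and by −0.13 without day 1 replicate 5.

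**Figure D3:**
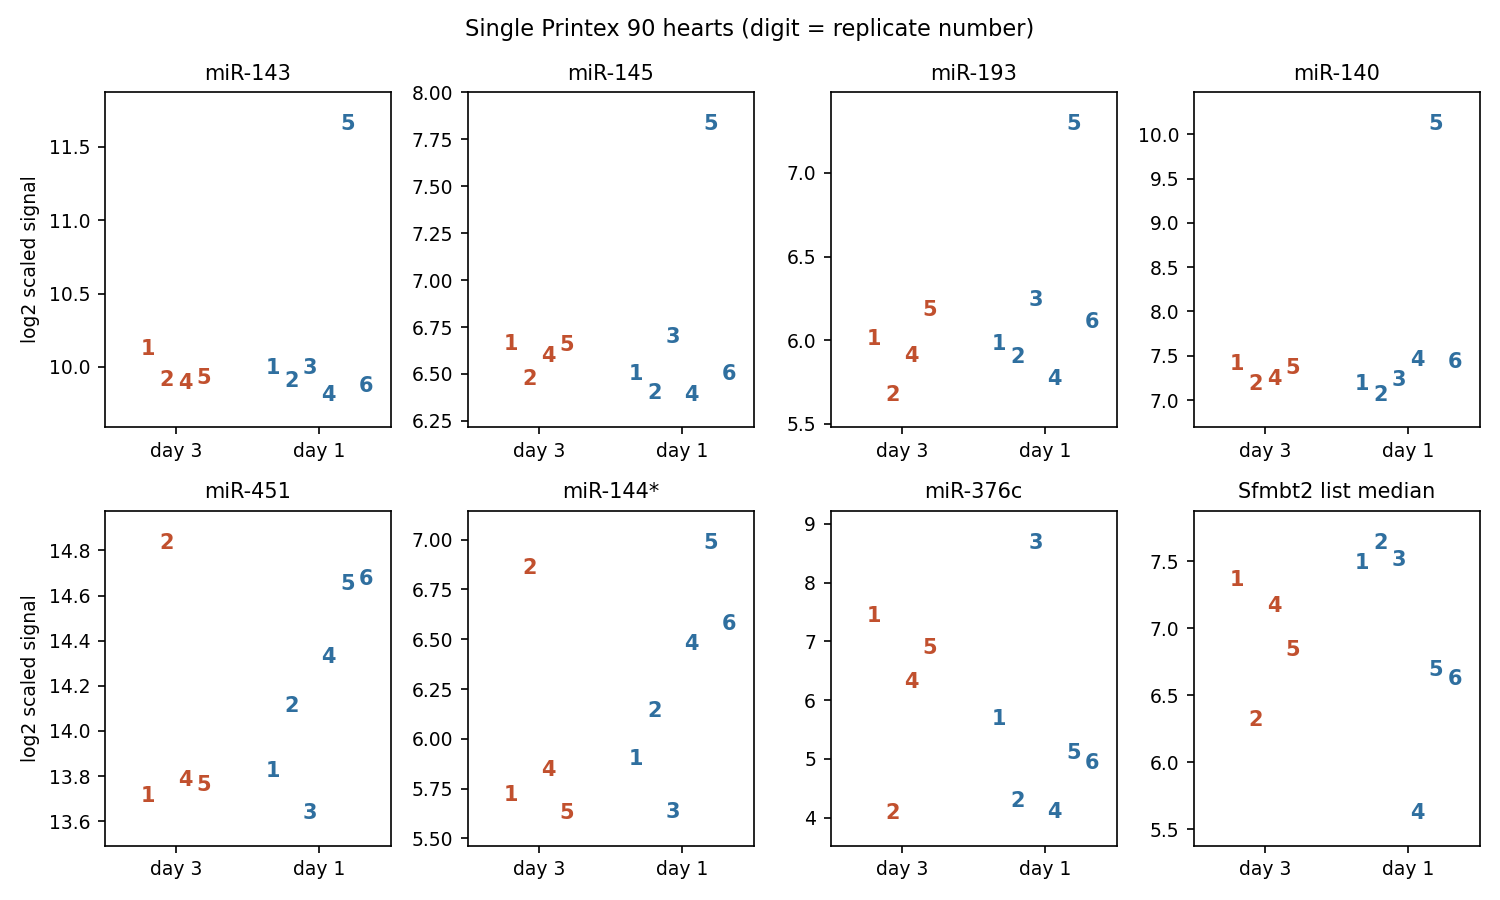
Log2 scaled signal per heart, each printed as its replicate number, with day 3 left and day 1 right, for 7 miRNAs and for the median over the 42 Sfmbt2 miRNAs. Day 1 replicate 5 stands alone at the top for miR-143, miR-145, miR-193 and miR-140, day 3 replicate 2 is the high day 3 heart for miR-451 and miR-144*, and day 1 replicate 4 is lowest for the Sfmbt2 median.

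The family of miR-10, miR-99, miR-100 and miR-125, whose members are coded near Hox genes or with let-7, had higher values on day 3 in 7 of 7 tested members, of which 0 passed, with a median of 0.09. The medians within slides 1, 2 and 3 were 0.04, 0.05 and 0.06, and the median without day 3 replicate 1 was 0.03. The highest were miR-10a, at 0.34 ± 0.38, and miR-10b, at 0.26 ± 0.29. miR-10b had 6.67, 6.35, 6.42 and 6.31 on day 3, against 5.63 to 6.48 (median 6.25) on day 1. miR-99a differed by 0.09 ± 0.09.

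Other miRNA families had small median differences. Among the let-7 guide strands, which restrain growth genes, 7 of 8 had higher values with a median of 0.04 (−0.01 in the value table), let-7c at 0.06 ± 0.11 and let-7g at 0.05 ± 0.10. Among their star strands 3 of 4 were lower with a median of −0.02, which was 0.02 with scaling over all probes, and let-7a-1* differed by 0.08 ± 0.12. The growth-limiting miR-15/16 family had 7 of 8 higher and a median of 0.03, with miR-322 at 0.08 ± 0.09. The growth-promoting miR-17 and miR-106b clusters had 5 of 9 higher and a median of 0.00, with miR-17* at −0.10 ± 0.11 and miR-92a at 0.05 ± 0.07. miR-17* was tested only because 4 of 6 exposed day 1 arrays detected it, against 2 of 4 on day 3. Its exposed values of 4.51 to 5.19 lay near the floor of the scale, 4.08, so its lower value on day 3 carries little weight. In these 4 lists 0 members passed.

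Of the miR-30 family, abundant in heart muscle cells, 7 of 11 had higher values, with a median of 0.01, which lay just below 0 with normexp. miR-30b had 10.93, 10.80, 10.85 and 10.40 on day 3, against 9.94 to 10.86 (median 10.68) on day 1, and the lowest hearts were those of slide 2 on both days. Its difference of 0.22 ± 0.19 was 0.17, 0.36 and 0.01 within slides 1, 2 and 3. It was −0.02 without day 1 replicates 5 and 6, which leaves the low day 3 heart of their slide in. miR-30d differed by 0.08 ± 0.09. The miR-101 and miR-26 families had 4 of 5 higher with a median of 0.03, miR-26b at 0.07 ± 0.06 and miR-26a at 0.06 ± 0.07. The miR-181 family had 3 of 4 higher with a median of 0.02 (−0.03 with normexp), miR-181a at 0.04 ± 0.09 and miR-181c at 0.03 ± 0.08. The p53- and hypoxia-responsive miRNAs had 1 of 5 higher with a median of −0.02 (0.02 with scaling over all probes), miR-34a, a p53 target, at −0.03 ± 0.08 and miR-194 at 0.06 ± 0.09. In these 4 lists 0 members passed.

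The Sfmbt2 miRNAs are a rodent group coded by many near-copies within an intron of Sfmbt2, and their probes may share targets, so members are not independent. They were taken here by name (miR-297, miR-466, miR-467 and miR-669), and 42 of 62 were tested. On day 3 the median over the 42 was 7.36, 6.31, 7.17 and 6.84 per heart, against 5.62 to 7.64 on day 1. On day 1 the values of replicates 1, 2 and 3 (7.49, 7.64 and 7.51) were above every day 3 heart, and replicate 4 (5.62) was below every one, with replicates 5 and 6 (6.69 and 6.62) among them.

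The members' differences between the days ran from −0.17 to 0.12, with 25 of 42 higher, 0 passing and a median of 0.03 (−0.06 with normexp). That median was also −0.09 with slide as a fixed block and −0.04 with slide as a random block. It was −0.06 with the share of spots well above background as a covariate, and it stayed above 0 with the other scalings. Within slides 1, 2 and 3 the median was 0.53, 0.13 and −0.59, so its sign differed between slides. It was −0.21 without day 1 replicate 4 and 0.16 without day 3 replicate 2. The lowest members were miR-669m-3p at −0.17 ± 0.36 and miR-297a-5* at −0.14 ± 0.31.

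The imprinted Dlk1-Dio3 cluster, a large group of miRNAs, had 8 of 92 members tested. Of these 6 were lower on day 3, 0 passed and the median was −0.10, which was 0.02 without day 3 replicate 2 and −0.24 without day 3 replicate 1. miR-494 differed by −0.15 ± 0.18. miR-376c stood apart from the other members, with 7.44, 4.08, 6.30 and 6.89 on day 3, against 4.10 to 8.68 (median 5.01) on day 1. It was detected on 3 of 4 day 3 arrays and 4 of 6 day 1 arrays. The lowest day 3 value is the floor of the scale, and the day 1 maximum of replicate 3 was 8.68 where the other 5 hearts were at most 5.68. Its difference of 0.72 ± 0.93 (95% interval −1.20 to 2.63) was 1.42 without day 3 replicate 2 and 1.36 without day 1 replicate 3. miR-302c of embryonic stem cells and miR-3063 had the same high and low hearts, at 8.14 and 8.71 in day 1 replicate 3 and at the floor in day 3 replicate 2 and in day 1 replicate 4.

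miR-204, miR-211 and miR-211* had 1 of 3 higher and a median of −0.02 (0.03 with scaling over all probes). The late-numbered miRNAs between miR-5000 and miR-5199 had 3 of 9 higher and a median of −0.03, which was 0.02 with scaling over all probes. Markers of other organs (hepatic, pancreatic, neural, epithelial and ciliary) were mostly undetected, and 3 of 40 were tested. Hepatocyte miR-122 had 6.25, 5.24, 4.52 and 6.69 on day 3, against 4.52 to 8.00 (median 6.95) on day 1. Its difference was −0.83 ± 0.73 (95% interval −2.33 to 0.67) with −3.23, 0.84 and 1.22 within slides 1, 2 and 3. miR-128, of brain and also of muscle, differed by 0.10 ± 0.09. In these 3 lists 0 members passed, and the list's markers of pancreas, epithelium and cilia were detected on none of the Printex 90 arrays of either day.

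**Figure D4:**
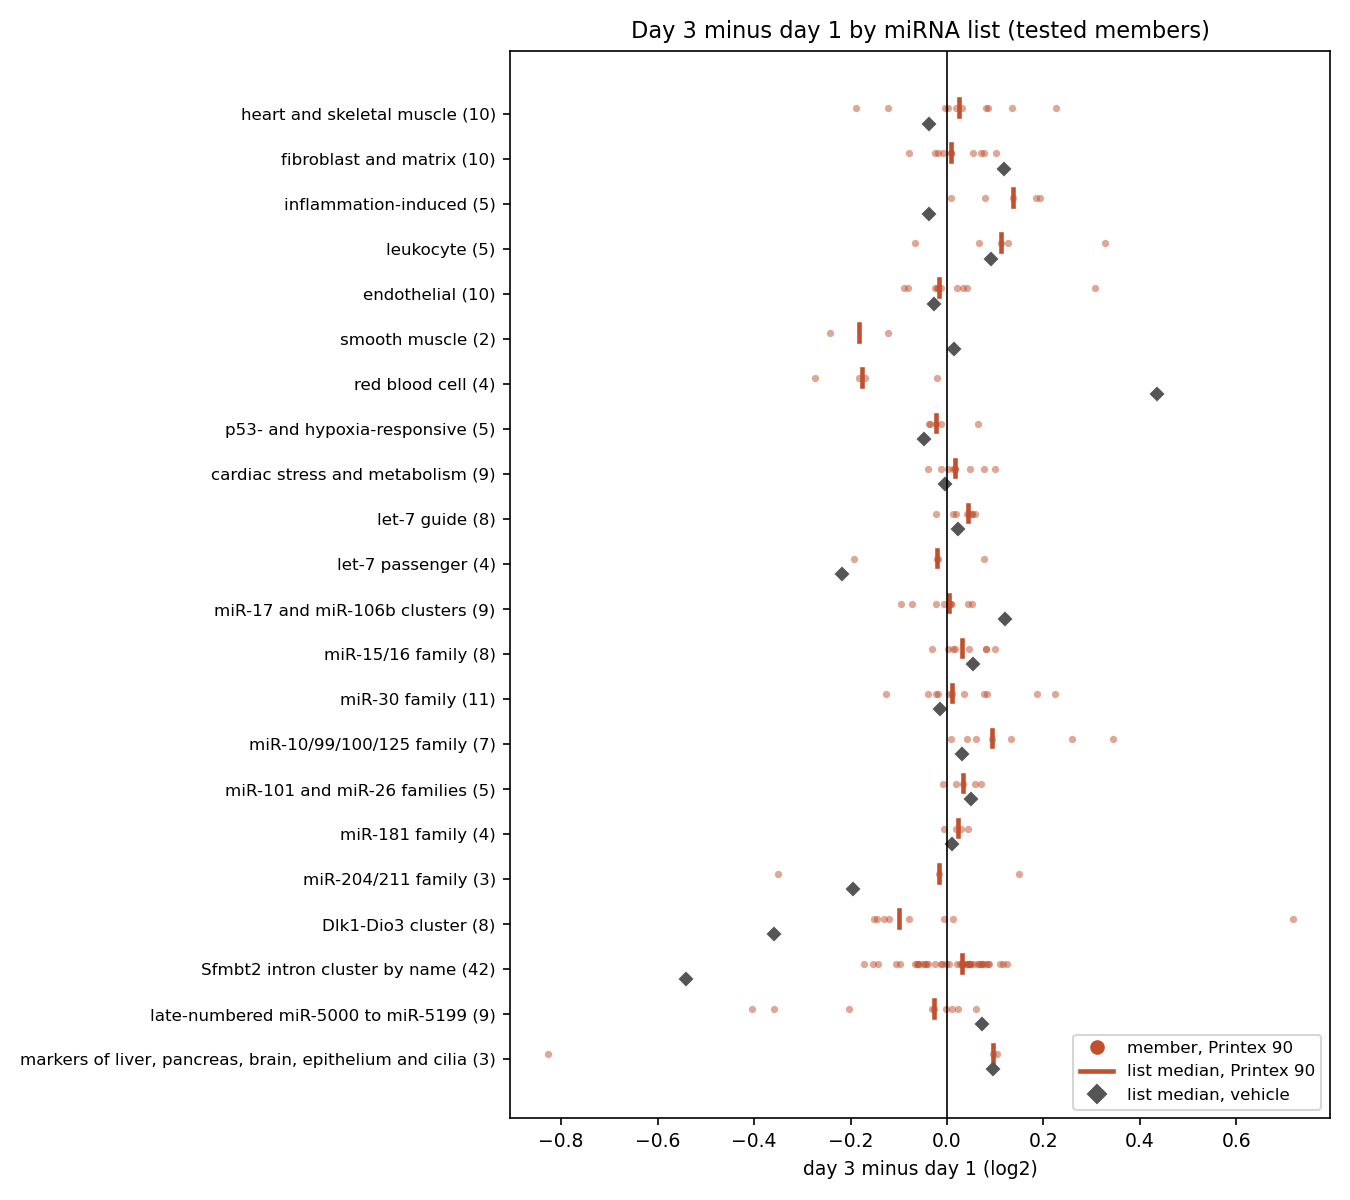
Log2 difference (day 3 minus day 1) of the tested members of each list in Printex 90 hearts as points, with the list median as a vertical bar, and the list median of vehicle hearts as a diamond (number tested in brackets). Printex 90 medians lie between −0.18 and 0.14, while vehicle medians reach −0.54 for the Sfmbt2 list and 0.44 for the red cell list.

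Over the 22 lists, the exposed median kept its sign with each heart left out in turn for 7. These were the muscle, inflammation-induced, leukocyte, red cell, miR-15/16, miR-10 to miR-125 and late-numbered lists, and the median of the other 15 turned in at least 1 case. A kept sign did not mean a firm value. The muscle median fell to 0.0008 without day 3 replicate 5 and the inflammation-induced one to 0.01 without day 1 replicate 5. The muscle median turned in the value table (−0.06), and the late-numbered one with scaling over all probes (0.02).

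Vehicle hearts of the same days were set beside the exposed ones to show what the 2 days gave without particles. In 6 day 3 and 4 day 1 vehicle hearts, none of 306 miRNAs passed (0%), 18 (5.88%) had an unadjusted p below 0.05, and the smallest adjusted p was 0.439 (limma). Values were higher on day 3 for 39.2% and lower for 60.8% of the miRNAs in vehicle hearts. Their median difference of −0.04 moved to 0.27 with scaling over all probes and to −0.26 without scaling. The smallest p belonged to miR-3473d, at −0.92 ± 0.33 in vehicle hearts, miR-3112* at −0.65 ± 0.25 and miR-10b at −0.67 ± 0.29. In the exposed hearts the same 3 differed by −0.22 ± 0.33, −0.18 ± 0.25 and 0.26 ± 0.29. Vehicle day 3 replicates 4 and 6 had the lowest shares of spots well above background among these vehicle hearts, at 18.4% and 20.2%. In them miR-3473d was 4.08 and 4.22 and miR-3112* 4.08 and 4.09, at or near the floor of 4.08. miR-3473d was 4.43 to 5.30 in the other vehicle day 3 hearts and 5.35 to 6.01 on vehicle day 1. miR-3112* was 4.15 to 4.95 and 4.66 to 5.41 in the same order. The cause was not tested.

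The difference between the exposed and the vehicle day change was tested as an interaction. None passed (0%), 2 (0.654%) had an unadjusted p below 0.05, and the smallest adjusted p was 0.735 (limma). The exposed day change was above the vehicle one for 65% of the miRNAs and below it for 35%. These 2 were miR-10b, at 0.93 ± 0.40 (95% interval 0.10 to 1.76), and miR-204, at 0.34 ± 0.16 (95% interval 0.01 to 0.68). miR-10b averaged 6.44 ± 0.16 and 6.18 ± 0.29 in exposed hearts on days 3 and 1, and 5.74 ± 0.62 and 6.41 ± 0.67 in vehicle hearts. Its vehicle hearts overlapped, with 4.77 to 6.59 on day 3 and 5.68 to 7.20 on day 1. miR-204 averaged 6.85 ± 0.10 and 6.70 ± 0.29 in exposed hearts, and 6.77 ± 0.12 and 6.96 ± 0.11 in vehicle hearts. Its lowest exposed day 1 heart was replicate 4, at 6.23, with the other exposed day 1 hearts at 6.56 to 6.96. The third was miR-335-5p, at 0.51 ± 0.26.

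By list, the day change of exposed minus vehicle hearts had its widest medians for the red cell list, at −0.63, and the Sfmbt2 list, at 0.54. In both, vehicle hearts had the wider day difference, with medians of 0.44 and −0.54 in vehicle hearts beside −0.18 and 0.03 in exposed hearts. The median over all tested miRNAs was 0.07, and it moved to −0.20 with scaling over all probes and to 0.36 without scaling. For miR-451 the interaction was −0.65 ± 0.34 and for miR-146a 0.42 ± 0.24, and neither passed. For the vehicle and interaction list medians, values with single hearts left out or within slides are not given here. Vehicle day 3 included replicates 4 and 6, with 18.4% and 20.2% of spots well above background, against 24.2% to 27.4% on vehicle day 1. Whether this bears on the list medians was not tested.

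Day 3 replicate 3 was described from the value table alone, whose values are log2 intensity without background subtraction. Its median correlation over the tested miRNAs with the other 29 columns was 0.972, against at least 0.978 for each of the others. It stood over 1 log2 unit above all 29 other columns for 7 tested miRNAs and over 1 unit below them for 0. The 7, picked after their values were seen, were miR-1224, miR-2861, miR-5109, miR-5105, miR-211*, miR-3960 and miR-5126.

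miR-1224 was 11.30 in this heart, against 7.46 to 7.96 in the other 4 day 3 hearts and 7.48 to 8.32 in the day 1 hearts. It was 7.62-fold above the highest of the other 29 columns on this scale. miR-5109 was 12.11, against 8.94 to 9.73 in the other day 3 hearts and 9.20 to 10.26 in the day 1 hearts. miR-5126 was 11.01, against 8.67 to 9.25 in the other day 3 hearts and 8.49 to 9.79 in the day 1 hearts. Of the 7, RefSeq held 4 sequences, those of miR-211* and miR-5126 printed above and the following pair, shown because these miRNAs set this heart apart.
miR-1224: gUGAGGACuggggagguggag
miR-2861: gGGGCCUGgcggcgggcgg

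**Figure D5:**
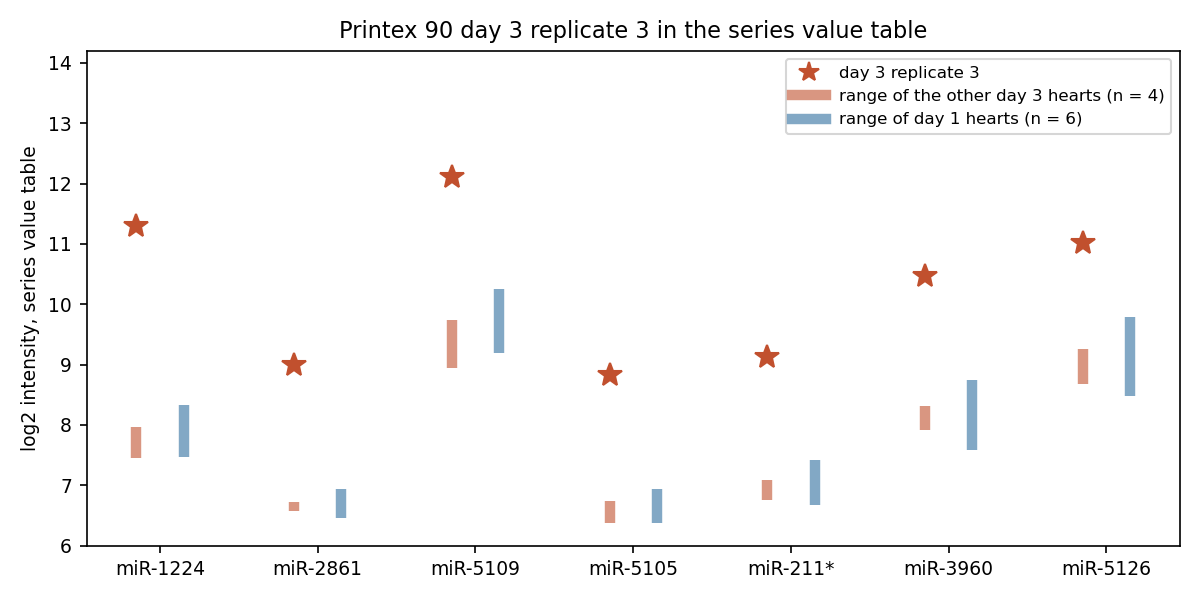
Log2 intensity in the series value table of the 7 miRNAs for which day 3 replicate 3 (star) exceeded all other columns by over 1 unit, beside the range of the other 4 day 3 hearts (left bar) and of the 6 day 1 hearts (right bar). The star lies above both bars for each miRNA, with the widest gap for miR-1224.

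With this heart in the fit through the value table of 30 columns, miR-5105, miR-211* and miR-5126 differed by 0.31, 0.25 and 0.11 between day 3 and day 1. In the same table without it they differed by −0.15, −0.20 and −0.31. Its muscle miR-133a (13.84) and red cell miR-451 (14.62) lay inside the day 1 range of that table, 13.53 to 14.02 and 13.51 to 14.92. Its miR-1a, at 15.58, was below all day 1 hearts, which had 15.88 to 16.30. Over the tested miRNAs it was highest of the 30 columns for 15 and lowest for 21. With 30 columns none of the tested miRNAs passed, and the smallest adjusted p was 0.990 (limma).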

How the data were processed

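Hearts of 29 mice gave array signals, 4 of them Printex 90 day 3 and 6 Printex 90 day 1. Per the file headers, the authors used Feature Extraction 10.7.3.1 on 1-colour scans, and the deposited scanner files hold background-subtracted signal intensity per spot on a linear scale. The deposited value table holds log2 intensity for 30 samples. How its columns were scaled is not given in the sources used here (column medians 5.78 to 5.82), and it was an alternative only.

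Signals were averaged over the spots of a probe, without control and outlying spots. A probe was detected when at least 0.5 of its spots were well above background. Each array was divided by the 75th percentile of its signals over the 418 probes detected on every array, and multiplied by the mean of that percentile over the arrays. Signals were then floored at 16.9 (4.08 in log2) and taken to log2. A miRNA was the mean of its probes that passed detection in at least 4 hearts of 1 group, which left 621 probes and 306 miRNAs, and 1.88% of values lay at the floor. The files held no mean pixel signal, so normexp with an offset of 50 used the median signal and the median background.

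limma 3.58.1 (R 4.3.3) fitted 6 group means to the 29 arrays with signals. Two-sided contrasts were adjusted by Benjamini-Hochberg over 306 miRNAs, with a threshold of 0.05. Means carry SD and differences SE. The number of arrays limits the precision, with a median residual SD of 0.27. The fit was tested on simulated data. Within-slide values are differences of means of 1 or 2 hearts a side, with no test.

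The text names the 8 miRNAs with the smallest p in each direction, up to 2 per list, 10 fixed miRNAs, 3 for each other comparison, and any said to be picked after their values were seen. Of the list members, miR-132, miR-212-3p, miR-142-3p, miR-126-5p and miR-10a were also picked then. The members and the 22 lists were chosen with earlier results of these data known. Names are those of the array design.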

Additional observations from a re-analysis of the deposited data

Results flagged for a closer look

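In the groups of 4 day 3 and 6 day 1 Printex 90 hearts, 166 sets of values were searched for a single heart far from the others by Dixon's criterion at the 95% level, and 21 were found. Chance flags about 1 in 20 such sets, and the sets share hearts. No explanation was weighed.

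Day 1 replicate 5 accounted for 10 of them. It was far above the other 5 day 1 hearts for miR-143 (11.65, others 9.81 to 9.99), miR-145 (7.83, others 6.39 to 6.70), the smooth muscle list median (9.74, others 8.10 to 8.34), miR-193 (7.29, others 5.77 to 6.24) and miR-21 (11.24, others 10.38 to 10.56). It was far below them for miR-374c (5.11, others 5.67 to 5.77), miR-340-5p (5.10, others 5.59 to 5.78), miR-22* (7.88, others 8.12 to 8.25), miR-181c (6.24, others 6.55 to 6.67) and miR-128 (6.76, others 7.07 to 7.22).

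Among the other day 1 hearts, replicate 4 was low for let-7f-1* (4.30, others 5.15 to 5.37) and for the muscle list median (9.39, others 9.55 to 9.63). Replicate 3 was high for miR-376c (8.68, others 4.10 to 5.68) and replicate 2 low for miR-1a (15.87, others 16.04 to 16.11).

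Among the day 3 hearts, replicate 2 was high for miR-451 (14.83, others 13.71 to 13.78), the red cell list median (8.96, others 8.14 to 8.27) and the miR-17 and miR-106b list median (8.23, others 7.93 to 7.98). It was low for miR-3069-3p (4.52, others 5.23 to 5.28) and the cardiac stress list median (8.39, others 8.57 to 8.59). Replicate 1 was high for miR-143 (10.12, others 9.89 to 9.92), and replicate 5 for the miR-15/16 family median (9.61, others 9.52 to 9.52).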

How the results depend on the processing

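None of the tested miRNAs passed in any of 27 alternatives of the day 3 minus day 1 comparison (smallest adjusted p 0.915, without day 1 replicate 4, to 1; 0 to 4 miRNAs with an unadjusted p below 0.05), 25 of the vehicle comparison (0.224 to 0.972; 2 to 63) or 36 of the interaction (0.537 to 0.999; 0 to 9). The alternatives changed the scaling, background correction, floor, filter, probe summary, data table, slide term, brightness covariate or arrays. Without the filter, miRNAs at the floor on all arrays were left out. No paired analysis was possible because the replicate numbers were given in accession order and pair no hearts. Leaving out 1 array at a time moved the brightness difference from −0.33 to 1.31 percentage points and that of miR-143 from −0.32 to 0.048. Signs turned for miR-340-5p with normexp (−0.0001) and for miR-143 without day 1 replicate 5 (0.048). With the value table of 30 columns they turned for miR-5105 (0.31), miR-211* (0.25), miR-5126 (0.11), miR-26b (−0.075) and the interaction of miR-335-5p (−0.0003). Without day 1 replicates 5 and 6, a setting added after seeing the data, they turned for miR-143 (0.037) and miR-30b (−0.017). The cause was not tested. Signs were checked for the 60 miRNAs named by rule, which leave out miR-140. A sign was counted as turned only where the difference in the main setting exceeded 1 SE. Few arrays and probes near background limit what could be seen.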
